A study of Mus musculus with 4 samples.

Results

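The genes that drive DNA replication and mitosis were examined as a group in pancreatic islets of 2-week-old mice. The group was a fixed list of 40 gene symbols, and all 40 were found among the 22481 gene symbols of the deposited expression table. Of them, 15 act at the entry into or during DNA replication and 25 act in mitosis. Islets are small clusters of endocrine cells in the pancreas, mostly insulin-secreting beta cells and glucagon-secreting alpha cells, with vessels and connective tissue among them. RNA sequencing was done on 2 libraries from knockout mice (KO1 and KO2, genotype label Ngn3Mettls KO) and 2 from wild-type mice (WT1 and WT2), all of strain 129sv. Each library pooled more than 400 islets, and since nothing in the labels ties a pool to particular animals, the p-values measure only the spread between these pools, which may be technical. The labels do not say which Mettl genes or exons were removed, nor name the driver of the deletion beyond Ngn3, a marker of endocrine progenitors. The 4 libraries held 5132883 (KO1), 4057821 (KO2), 5232346 (WT1) and 4347193 (WT2) estimated fragments, so KO1 and WT1 were the deeper of their genotypes.

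In a cell about to divide, E2F transcription factors switch on the genes of the G1/S boundary, the MCM helicase is loaded on origins, and nucleotide synthesis rises to feed the replication forks. Later, cyclin B with Cdk1 drives entry into mitosis, kinetochore and spindle proteins align and separate the chromosomes, and the anaphase-promoting complex destroys the cyclins. Beta cells of young mice still divide, and their division slows as the islet matures. Transcripts of both phases are generally scarcer in resting cells, but which cells of the islet they came from was not measured here. In bulk RNA, fewer cells of a type and less RNA per cell cannot be told apart.

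Many of these genes share short promoter elements, and the promoters of 4 members are printed because their classes are the ones compared below. They are the 250 bases before the RefSeq transcription start (GRCm38.p6), in lower case with matches to the searched motifs in capitals. Mcm6 and Top2a had the highest mean FPKM of their class among promoters lying clear of the annotated gene. Of the other genes with such a clear promoter, Mcm5 and Cenpf differed most between the WT libraries in their class. Mitosis genes outside that set, such as Cenpa, differed more than Cenpf.

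Mcm6, chr1:128359706-128359955, minus strand: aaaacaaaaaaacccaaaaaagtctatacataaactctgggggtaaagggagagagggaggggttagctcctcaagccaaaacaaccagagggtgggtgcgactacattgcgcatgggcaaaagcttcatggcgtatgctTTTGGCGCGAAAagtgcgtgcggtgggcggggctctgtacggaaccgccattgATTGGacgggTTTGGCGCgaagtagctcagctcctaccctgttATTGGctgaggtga

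Mcm5, chr8:75109259-75109508, plus strand: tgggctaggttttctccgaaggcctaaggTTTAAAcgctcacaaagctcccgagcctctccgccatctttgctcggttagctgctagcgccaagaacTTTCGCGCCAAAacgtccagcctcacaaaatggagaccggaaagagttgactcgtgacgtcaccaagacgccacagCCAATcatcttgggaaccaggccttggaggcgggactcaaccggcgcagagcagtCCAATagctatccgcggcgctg

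Top2a, chr11:99024190-99024439, minus strand: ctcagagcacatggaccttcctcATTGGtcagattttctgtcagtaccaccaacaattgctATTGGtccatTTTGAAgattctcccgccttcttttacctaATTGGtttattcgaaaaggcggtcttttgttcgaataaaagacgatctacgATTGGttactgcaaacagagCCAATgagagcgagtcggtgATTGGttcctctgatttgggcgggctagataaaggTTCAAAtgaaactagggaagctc

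Cenpf, chr1:189688087-189688336, minus strand: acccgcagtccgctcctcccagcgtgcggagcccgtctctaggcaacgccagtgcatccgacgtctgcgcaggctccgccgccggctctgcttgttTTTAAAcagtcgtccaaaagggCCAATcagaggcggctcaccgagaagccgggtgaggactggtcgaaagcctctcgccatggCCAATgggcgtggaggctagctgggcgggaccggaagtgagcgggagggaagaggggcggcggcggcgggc

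The motifs, searched on both strands, were the E2F element (TTTCCCGC, TTTGGCGC, TTTCGCGC or TTTGCCGC), the cell cycle homology region or CHR (TTTGAA or TTTAAA) and the CCAAT box (CCAAT). E2F matches can overlap each other on the opposite strand, as they do in Mcm6 and Mcm5. In Mcm5, TTTCGCGC begins 153 bases and GCGCCAAA 149 bases before the start. Promoters were found for 32 members. The E2F element was in 3 of 12 replication promoters (Mcm5, Mcm6 and Mcm7) and in 1 of 20 mitosis promoters (Cdk1), against 1.91% of 27025 promoters in all. A CHR was in 3 of 12 replication and 12 of 20 mitosis promoters, against 25.5% of all. A CCAAT box was in 9 of 12 and 18 of 20, against 34.5% of all, and more than 1 of them in 5 of 12 and 12 of 20, against 10.5%. These counts describe letters in the windows and not binding.

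The genes that the knockout name points to did not pass the edgeR test. Mettl14, a core subunit of the RNA m6A methyltransferase, was at 14.1 and 15.6 CPM in KO, against 21.4 and 21.8 in WT (log2 fold change -0.54, -1.04 to -0.03, edgeR adjusted p = 0.369). Both KO values lay below both WT values, as they did for 22.3% of all genes tested. Here CPM is the estimated count scaled to a common library total with TMM normalisation, and a positive log2 fold change means higher in KO, with the 95% interval given as a range. Mettl3, its catalytic partner, was at 18.6 and 17.2 CPM in KO, against 29.3 and 17.1 in WT, so WT2 was at the KO level (-0.38, edgeR adjusted p = 0.634). Neurog3, the gene of Ngn3, was at 6.33 and 9.12 CPM in KO, against 4.93 and 7.19 in WT. A value over the whole gene says nothing of exons that may have been removed.

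No cell cycle gene passed the test between KO and WT islets, and for 37 of 39 the libraries of a genotype differed more than the genotype means. The 39 members that could be tested summed to 891 CPM in KO1, 685 CPM in KO2, 900.3 CPM in WT1 and 502 CPM in WT2. WT1 and KO1 were the highest libraries, and the WT pair enclosed the KO pair. The means were 788 ± 146 CPM in KO and 701 ± 281 CPM in WT (SD, n = 2). Of the 39, 0 were called by edgeR at an adjusted p under 0.05, against 0.227% of the 12789 genes tested (0.133% higher and 0.0938% lower in KO), and the lowest adjusted p among them was 0.458. At an unadjusted p under 0.05 there were also 0, against 6.51% of all genes higher and 6.04% lower in KO. DESeq2 called 0 members and 150 of 16363 genes in all, and gave no adjusted p for 9 of the 40. Limma on FPKM called 0 of 12546 genes, so its 0 members say nothing of the members in particular. At an unadjusted p under 0.05 by limma there were 2 members, against 1367 or 1348 of the 12546 genes by pseudocount (1 or 0.1). Ccne1, a cyclin of the G1/S step, failed the count filter, with 19, 1, 4 and 8 fragments in KO1, KO2, WT1 and WT2. The 39 passed that filter through their counts in at least some libraries, so they are not the whole list.

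**Figure D1:**
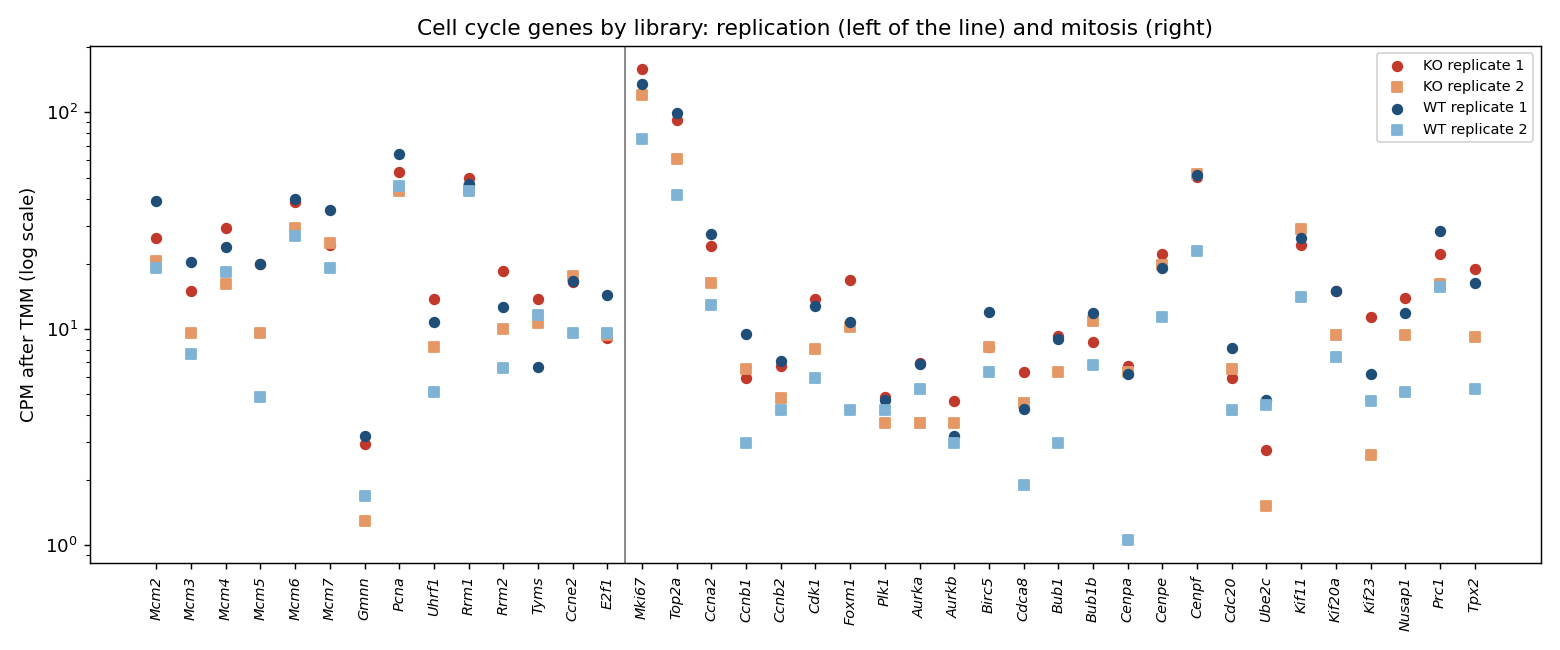
CPM of each tested cell cycle gene (log axis) in the 4 libraries, KO in red and orange, WT in dark and light blue, with circles for replicate 1 and squares for replicate 2. WT replicate 2 (light blue squares) is the lowest point for 30 of 39 genes.

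WT2 was the lowest library for 30 of the 39 genes, against 25.8% of all genes tested, and the highest for 0. KO1 was the highest for 19 and WT1 for 17. WT1 exceeded WT2 in 38 of 39 genes, against 49.8% of all genes, with a median difference of 0.88 (log2 CPM with a prior count of 2). KO1 exceeded KO2 in 30 of 39, against 48.9% of all genes, with a median difference of 0.44. Across all genes tested both medians were within 0.01 of 0. Differences of more than 1 log2 unit were found in 14 of the 39 between the WT libraries and in 3 between the KO libraries, against 6.64% and 4.25% of all genes. For 37 of the 39, the larger of the within-genotype differences exceeded the difference between the genotype means, against 67.8% of all genes.

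**Figure D2:**
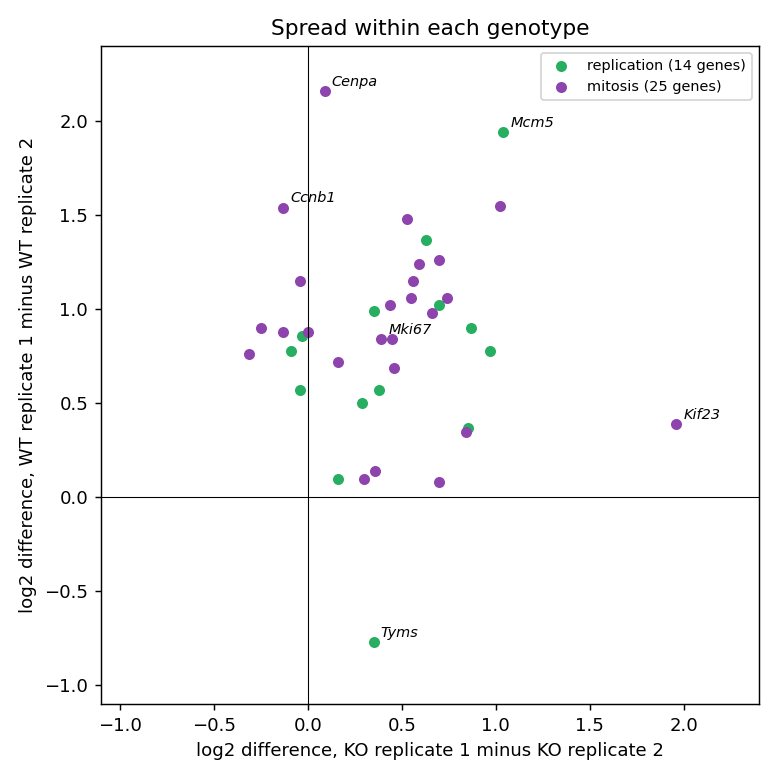
Difference in log2 CPM between the KO libraries (horizontal) and between the WT libraries (vertical), replicate 1 minus replicate 2, for 14 replication (green) and 25 mitosis (purple) genes. All points but Tyms lie above 0 on the vertical axis, and Cenpa reaches 2.16.

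No replication gene passed the test: of 14 tested, 8 had a log2 fold change (KO minus WT) above 0 and 6 below it, with a median of 0.04 beside 0.00 for all genes, and 57.1% were positive beside 50.7% of all genes. Their summed levels were 331 and 255 CPM in KO1 and KO2, and 354 and 229 CPM in WT1 and WT2. The genotypes overlapped, with both WT values outside the KO values.

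The 6 subunits of the MCM helicase, which unwinds DNA at the fork, were measured at 154 and 110.1 CPM in sum in KO and 178 and 96.2 CPM in WT. Mcm5 (chromosome 8, 75109569 to 75128439, plus strand) stood at 20 and 9.56 CPM in KO, against 19.9 and 4.86 in WT, the widest range within WT of any replication gene (1.94 on the log2 scale). Its log2 fold change was 0.26 with a 95% interval of -1.16 to 1.68, which includes a change of 1 log2 unit either way. Mcm2 measured 26.4 and 20.6 CPM in KO, against 38.8 and 19.2 in WT, and Mcm3 15 and 9.56 CPM in KO, against 20.3 and 7.61 in WT. In both of these subunits WT1 was highest and WT2 lowest, with the KO libraries between them. Mcm7, highest of the subunits per length with a mean FPKM of 14.6, measured 24.5 and 25 CPM in KO, against 35.3 and 19.2 in WT. Mcm6 had a log2 fold change of 0.02 (-0.53 to 0.57) and Mcm4 of 0.10 (-0.62 to 0.82). Mcm4 departed from the other subunits in having its lowest value in KO2. Gmnn, geminin, which blocks a repeat of MCM loading, was low, at 2.95 and 1.3 CPM in KO, against 3.21 and 1.69 in WT.

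Pcna, the sliding clamp that tethers the polymerases (chromosome 2, 132249162 to 132253314, minus strand), had the highest FPKM of the list, at 36.3 and 29.7 in KO and 39.2 and 31.5 in WT. Its log2 fold change was -0.19 with an interval of -0.66 to 0.28. Rrm1, the large subunit of ribonucleotide reductase, had the narrowest spread between libraries, at 49.6 and 44.3 CPM in KO, against 46.5 and 43.4 in WT, and a fold change of 0.06 (-0.28 to 0.41). Its partner Rrm2, the subunit whose level limits the enzyme in S phase, ranged more widely, at 18.6 and 9.99 CPM in KO, against 12.6 and 6.56 in WT (0.57, -0.42 to 1.57). For Rrm2 the KO and WT values interleaved. Tyms, thymidylate synthase, was the single tested member that was lower in WT1 (6.64 CPM) than in WT2 (11.6 CPM), with 13.7 and 10.6 CPM in KO. Tyms was also the only member with fractional fragment counts after the library scaling was divided out, so its reads may be shared with another gene. Its deposited locus was wide, from 29704549 to 30089046 on chromosome 5. Those of Mcm2 (chromosome 6, 88257334 to 89110030) and Ccna2 (chromosome 3, 36065979 to 36800359) were wide too, with whole fragment counts.

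Among the G1/S regulators, Ccne2, a second cyclin E, was at 16.5 and 17.6 CPM in KO, against 16.7 and 9.52 in WT. The value in WT2 stood apart from the rest. E2f1, which activates the G1/S genes, was at 9.07 and 9.34 CPM in KO, against 14.3 and 9.52 in WT, the only replication gene whose genotypes did not overlap on CPM (fold change -0.37, -1.13 to 0.39, edgeR adjusted p = 0.692). The gap between the nearest KO and WT values of E2f1 was small, at 9.34 against 9.52 CPM. Uhrf1, which carries DNA methylation onto the new strand, measured 13.7 and 8.25 CPM in KO, against 10.7 and 5.08 in WT. Its FPKM gave another order, 3.82 and 7.14 in KO and 2.70 and 1.76 in WT, so KO2 was the highest library by FPKM but below KO1 and WT1 by CPM, and the genotypes did not overlap by FPKM. The ratio of FPKM to count varied more than 1.5-fold between libraries in 10 members, Uhrf1 among them with a 3.5-fold range.

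No mitosis gene passed the test either, and 20 of 25 had a log2 fold change above 0, beside 50.7% of all genes, with a median of 0.21. Leaving out 1 library changed that count to 8 of 25 without WT2, 13 without KO1, 20 without KO2 and 24 without WT1. The mitosis genes summed to 561 and 430.3 CPM in KO1 and KO2 and 547 and 273 CPM in WT1 and WT2. WT2 was the lowest library for 21 of 25. WT1 exceeded WT2 in 25 of 25 (median 0.90 on the log2 scale), and KO1 exceeded KO2 in 19 of 25 (median 0.45). WT2 thus lay below the other libraries for most mitosis genes, and also for most replication genes. Of the 14 replication genes tested, WT2 was the lowest library for 9. WT1 exceeded WT2 in 13 of them, and KO1 exceeded KO2 in 11.

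**Figure D3:**
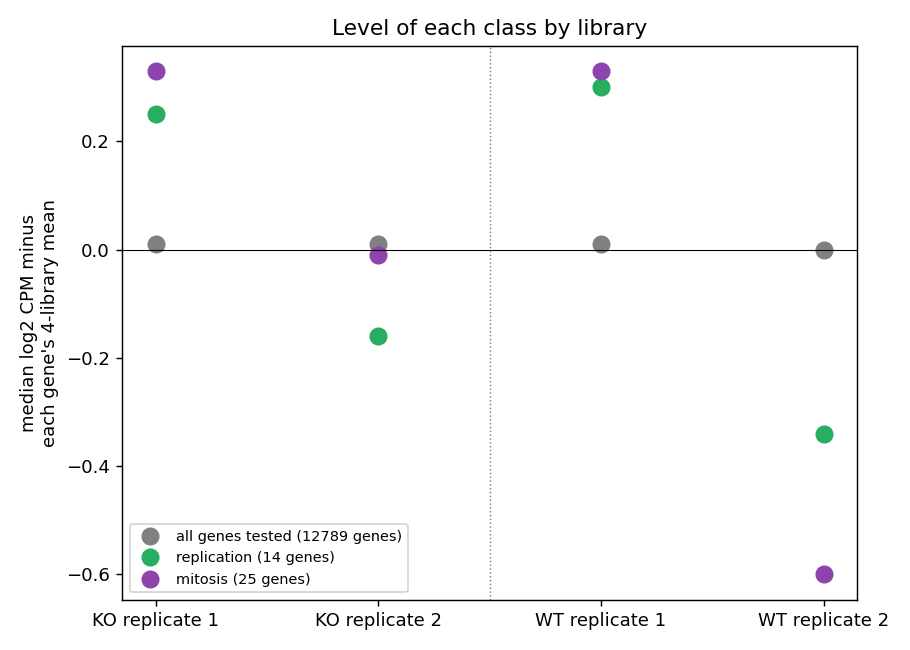
Median over the genes of each class of log2 CPM minus that gene's mean over the 4 libraries, for replication, mitosis and all genes tested. In WT replicate 2 the mitosis genes are at -0.60 and the replication genes at -0.34, while all genes stay near 0.

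Mki67, the Ki-67 protein that coats mitotic chromosomes and is the common marker of dividing cells (chromosome 7, 135689784 to 135716361, minus strand), was at 158 and 121 CPM in KO, against 135 and 75.1 in WT. KO1 was highest and WT2 lowest, and the groups overlapped (fold change 0.41, -0.20 to 1.02, edgeR adjusted p = 0.560). Top2a, the topoisomerase that untangles sister chromatids (chromosome 11, 98992943 to 99024189, minus strand), measured 92 and 61 CPM in KO, against 99.2 and 41.7 in WT. Here the WT libraries were both the highest and the lowest (0.12, -0.74 to 0.98). Per length, Top2a was the highest mitosis gene, with a mean FPKM of 18.1 against 9.94 for Mki67.

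Cyclins A and B had fold changes near 0 on counts. Ccna2, cyclin A, was at 24.1 and 16.3 CPM in KO, against 27.4 and 12.9 in WT (0.00, -0.86 to 0.86). Ccnb1, cyclin B1, was at 5.91 and 6.52 CPM in KO, against 9.42 and 2.96 in WT (0.01, -1.28 to 1.3). On CPM, the KO values of both cyclins lay between the WT values. The FPKM of Ccna2 gave another order, at 10.5 and 7.61 in KO and 8.35 and 4.76 in WT, and limma on log2(FPKM + 1) gave it a fold change of 0.44. Ccnb2 had a fold change of 0.03 and Cdk1 of 0.21. Foxm1, the transcription factor that activates many G2/M genes, had the largest positive fold change of those tested with all libraries, at 16.9 and 10.2 CPM in KO, against 10.7 and 4.23 in WT (0.86, -0.25 to 1.97, edgeR adjusted p = 0.505). Its lower KO value was below the higher WT value, so the groups overlapped. Leaving out 1 library moved the fold change of Foxm1 to 0.34 without WT2, 0.44 without KO1, 1.17 without KO2 and 1.66 without WT1. Among the 39 members tested with all libraries, Foxm1 was the largest of these fits only without KO2. Without KO1 or WT1 the fold change of Cenpa was larger, at 0.78 and 2.59, and without WT2 that of Tyms, at 0.87. Ccne1, which failed the count filter with all libraries, passed it without KO2 and without WT2. Its fold changes there were larger still, at 1.36 and 1.14, and rested on 19, 1, 4 and 8 fragments in KO1, KO2, WT1 and WT2. Foxm1 overlaps other annotated genes on its strand, and how such reads were counted is not known here.

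On CPM, the groups did not overlap in 4 mitosis genes with KO above WT, against 22.7% of all genes, and in Ube2c and E2f1 with KO below WT, against 22.3% of all genes. The 4 were Aurkb, Cdca8, Cenpa and Cenpe, a share of the 39 below that background. Aurkb, the kinase of the chromosomal passenger complex, was at 4.64 and 3.69 CPM in KO, against 3.21 and 2.96 in WT. Cdca8, borealin of the same complex, was at 6.33 and 4.56 CPM in KO, against 4.28 and 1.9 in WT. By FPKM the genotypes overlapped in Cdca8, at 2.71 and 2.08 in KO and 2.37 and 1.46 in WT. Both lie in the low range, and their partner Birc5, survivin, had a fold change of the opposite sign (-0.15, -1.07 to 0.76). Plk1 (-0.06) and Aurka (-0.18), kinases of mitotic entry and of the spindle poles, had negative fold changes and their lowest values in KO2.

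The centromere and checkpoint genes were lowest in WT2 in 5 of 5, summing to 97.3 and 94.9 CPM in KO, against 97.2 and 45 in WT. Cenpf, a kinetochore protein (chromosome 1, 189640606 to 189688086, minus strand), was at 50.4 and 51.7 CPM in KO, 51.2 CPM in WT1 and 22.8 CPM in WT2. KO1, KO2 and WT1 lay close together, and WT2 stood below them. Without WT1, 14 of 40 members had an unadjusted p under 0.05, against 13.8% of the 13127 genes tested in that fit. Cenpf was the 1 called there, against 0.663% of those genes, and it was higher in KO (fold change 1.15, edgeR adjusted p = 0.0370). Without WT2 the fold change of Cenpf was -0.00204. Cenpa, the histone H3 variant that marks centromeres, followed the same pattern at 6.75, 6.30, 6.21 and 1.06 CPM in KO1, KO2, WT1 and WT2. Its WT2 value rested on 5 fragments. Cenpe, the kinetochore motor, was at 22.2 and 19.8 CPM in KO, against 19.1 and 11.4 in WT. Bub1 and Bub1b, kinases of the spindle checkpoint, had fold changes of 0.38 and 0.07.

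Ube2c, the ubiquitin-conjugating enzyme of the anaphase-promoting complex, was lower in both KO libraries than in both WT libraries, at 2.74 and 1.52 CPM in KO, against 4.71 and 4.44 in WT. With all libraries it had the largest fold change of the tested members in either direction (-1.09, -2.35 to 0.17) and the lowest adjusted p, 0.458, and did not pass. Its KO values stood on 14 and 6 fragments. Cdc20, the activator of the same complex, was at 5.91 and 6.52 CPM in KO, against 8.14 and 4.23 in WT.

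Among the spindle and midzone genes, 5 of 6 had positive fold changes. Kif11, the motor that pushes spindle poles apart, was at 24.3 and 28.9 CPM in KO, against 26.3 and 14 in WT. Tpx2, which nucleates spindle microtubules, was at 19 and 9.12 CPM in KO, against 16.3 and 5.29 in WT. In Tpx2 both genotypes spread by more than 1 log2 unit. Kif23, a motor of the midzone, had the widest KO pair of the 39 tested members, at 11.4 and 2.61 CPM, with 6.21 and 4.65 CPM in WT. Kif20a and Nusap1 had fold changes of 0.12 and 0.47, and Prc1, which bundles midzone microtubules, had -0.20.

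**Figure D4:**
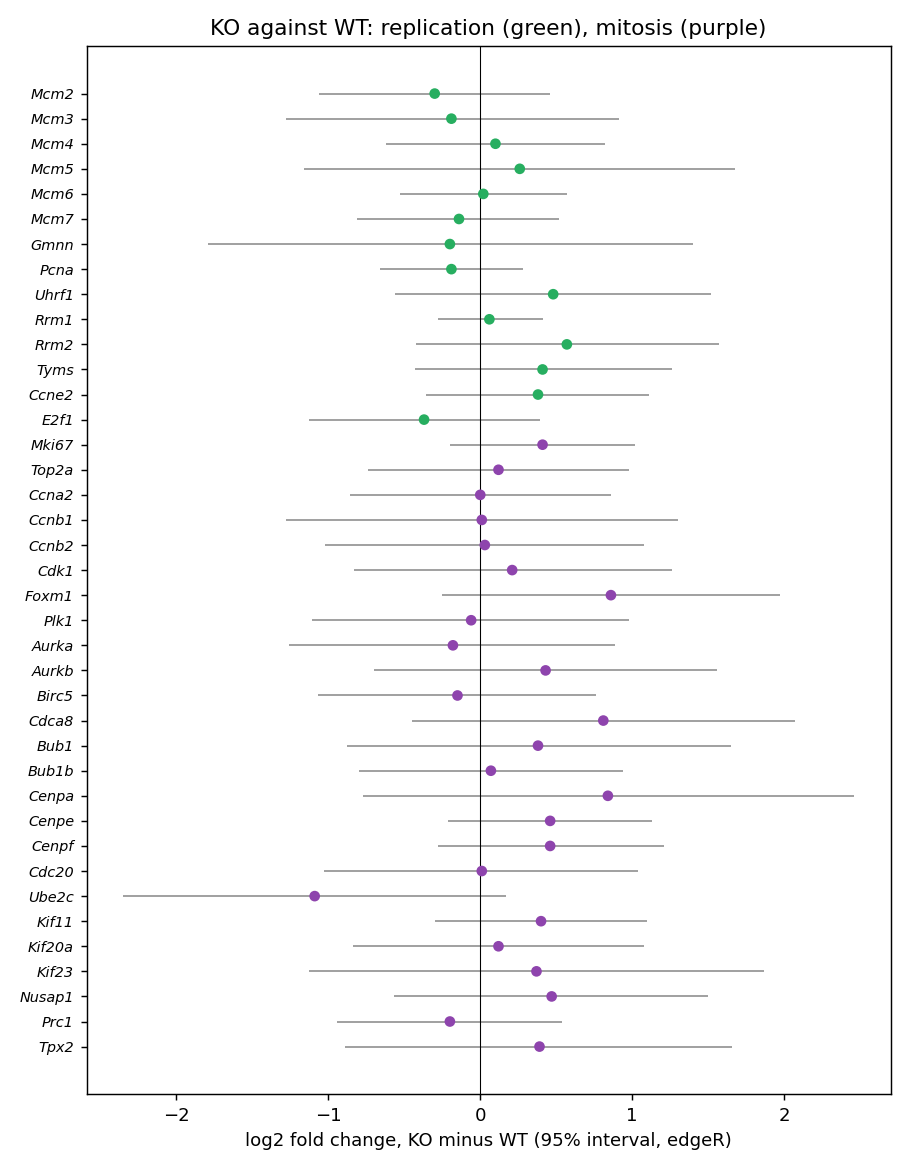
Log2 fold change, KO minus WT, with its 95% interval from edgeR for each tested gene, replication genes in green and mitosis genes in purple. Every interval crosses 0, and Ube2c at -1.09 is farthest from it.

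Set side by side, the summed mitosis genes differed more between the WT libraries than the summed replication genes, and by the same ratio between the KO libraries. The summed CPM of mitosis genes per summed CPM of replication genes was 1.69 in KO1, 1.69 in KO2, 1.55 in WT1 and 1.19 in WT2. WT1 was 1.54 times WT2 for replication and 2 times for mitosis, while KO1 was 1.3 times KO2 for both. A few genes weigh heavily in such sums: Mki67 and Top2a made up 251 of the 561 CPM of mitosis genes in KO1. Gene by gene the classes were closer, with a median WT1 minus WT2 difference of 0.78 for replication and 0.90 for mitosis (log2). On CPM, the ratio of mitosis to replication sums was lowest in WT2, and that of WT1 was also below both KO libraries. On FPKM, only WT2 stood apart. There the summed mitosis and replication genes, Ccne1 included, were at 134 and 133 in KO1, 103 and 102 in KO2, and 137 and 135 in WT1. In WT2 they were at 73.5 and 94.4. The median fold changes of 0.04 and 0.21 carry no test, since the members were chosen with results known. Without WT2 they were -0.24 for replication and -0.21 for mitosis, and without WT1 they were 0.32 and 0.86. Without KO1 they were -0.28 and 0.06, and without KO2 they were 0.27 and 0.42, while the median of all genes stayed between -0.02 and 0.01.

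**Figure D5:**
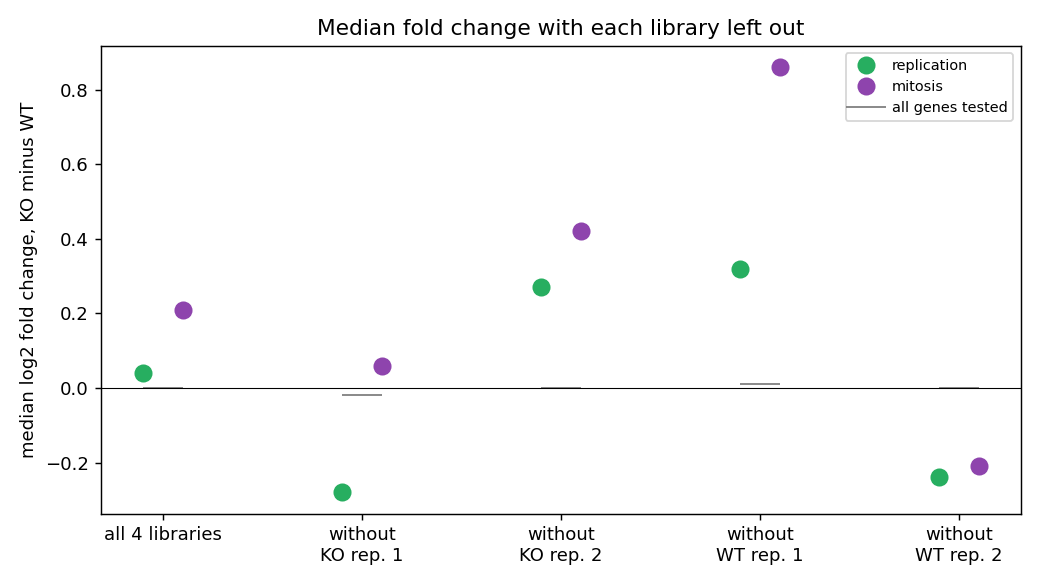
Median log2 fold change, KO minus WT, of replication and mitosis genes with all 4 libraries and with each left out in turn. Both medians turn negative without WT replicate 2 (-0.24 and -0.21), and grey dashes mark the median of all genes.

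Among further genes of the same processes none was called. Of 35 tested further replication genes 25 had a positive fold change (median 0.12), and of 56 further mitosis genes 40 (median 0.27), with WT2 lowest in 18 and 42. WT1 exceeded WT2 in 29 of the 35 and in 54 of the 56. Of 25 tested regulators, such as other E2F factors and the retinoblastoma family, 15 were positive (median 0.05). Among the genes with the highest mean FPKM in these lists, Dut (0.03), Slbp (0.00), Smc4 (0.02) and Rb1 (-0.02) had fold changes close to 0. Spc25, a subunit of the kinetochore's Ndc80 complex, was at 99 and 107 CPM in KO, against 119 and 121 in WT (-0.22, edgeR adjusted p = 0.478). Rbbp4, a histone-binding protein that the retinoblastoma family works with, was at 228 and 209 CPM in KO, against 254 and 253 in WT (-0.21, edgeR adjusted p = 0.469). In both genes the KO values lay below the WT values, and neither passed the test. The same order was found in 2 of the 56 mitosis genes and 4 of the 25 regulators, against 22.3% of all genes.

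Other cell types differed between the pools as well. Beta cell markers summed to 45055 and 46598 CPM in KO, against 63713 and 47029 in WT, and markers of alpha and other endocrine cells to 51050.4 and 63244 CPM in KO, against 44627 and 46204 in WT, so the labelled tissue was present in each. Gene by gene, 2 of 10 beta cell markers had a positive fold change, beside 50.7% of all genes. Of these 10, 2 were called lower in KO, against 0.0938% of all genes. Of the 10 other endocrine markers, 1 was called higher, against 0.133%. Mesenchymal markers (10 of 10 tested) summed to 1609.6, 1299, 2376 and 1039.6 CPM in KO1, KO2, WT1 and WT2, the same order as the cell cycle genes, with WT1 highest and WT2 lowest. Macrophage markers (8 of 10 tested) summed to 164, 104, 108 and 63.4 CPM and endothelial markers (10 of 10 tested) to 1098, 940.1, 1089.7 and 933 CPM, also lowest in WT2. The Y-linked gene Uty, chosen after its values were seen, followed the order too, at 111, 58.4, 117 and 44.8 CPM. Acinar markers (11 of 12 tested) ran otherwise, at 3538, 7142, 7729 and 5161 CPM, as did red blood cell markers (7 of 8 tested) at 255, 119, 136 and 306 CPM. Ductal markers (8 of 9 tested) summed to 522, 609, 470.3 and 588 CPM and Schwann cell markers (7 of 9 tested) to 184, 190.1, 151 and 193 CPM. Lymphocyte markers were at 18.8, 13.7, 17.1 and 12.3 CPM with 3 of 10 tested, and Cd3e and Cd3g were at 0 in all libraries. The part of these cell types, or of the sexes pooled, in the cell cycle values was not tested.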

How the data were processed

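RNA-seq of 2 KO and 2 WT islet pools was used. Per the labels' protocols, ribosomal RNA was depleted from total RNA and strand-specific libraries were read as 150-base pairs. Per the submitters' processing notes, cutadapt 1.9.3, HISAT2 2.0.4, Cufflinks and Cuffdiff were used with mm10. Annotation and counting options: not given in the sources used here. Per the file headers, the authors deposited FPKM values and estimated counts for 22564 rows. These estimated counts were scaled per library: of the low values checked, 94.2% to 95.4% were whole multiples, within 0.1, of a step between 0.9012 and 1.155. Dividing by the step gave the fragments.

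The 79 repeated symbols were summed, counts rounded, filtered with filterByExpr and tested with edgeR 4.0.16 (TMM, quasi-likelihood, two-sided, genotype only, Benjamini-Hochberg over 12789 genes, called under 0.05). Intervals are 95% from that fit. Log2 CPM used a prior count of 2. DESeq2 1.42.0, limma 3.58.1, other normalisation, filter and scaling, a replicate block and leaving out each library were the alternatives. The common biological coefficient of variation was 16.0%, which with depth sets the precision. The test was checked on simulated counts. Changes were simulated only in genes above a level that the lowest members, such as Gmnn, did not reach, so the check does not cover those members. Coordinates are from GENCODE M21 (GRCm38), which is mm10. All 40 members are described. Of 3 further lists, called genes or else the 2 with the highest mean FPKM are named. Members and lists were chosen with earlier results of these data known.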

Additional observations from a re-analysis of the deposited data

How the results depend on the processing

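The count of members called stayed at 0 with each other tool, filter, normalisation and scaling tried, and was 1 (Cenpf) without WT replicate 1. Genes called in all, 29 by edgeR, numbered 150 with DESeq2, 0 with limma on log2(FPKM + 1), 0 with limma on log2(FPKM + 0.1), where 1367 and 1348 had an unadjusted p under 0.05, and 214 with a replicate block. The block called 0 members. The labels do not tell whether same-numbered KO and WT pools share a litter or day, so the number was not taken as a pairing. The differences between the libraries of a genotype correlated at 0.16 across 12789 genes, and replicate 1 was higher in both genotypes for 29 of 39 members, against 27.9% of all genes. Leaving out 1 library at a time gave 10 to 245 called genes in all, 0 to 1 called members, and median fold changes of -0.22 to 0.61 for all members, -0.28 to 0.32 for replication and -0.21 to 0.86 for mitosis. Such fits assume that a lone library varies like the other genotype. Fold changes whose direction turned there ranged as follows: Mcm2 -0.72 to 0.28, Mcm3 -0.73 to 0.68, Mcm4 -0.41 to 0.47, Mcm5 -0.42 to 1.59, Mcm6 -0.24 to 0.32, Mcm7 -0.51 to 0.35, Gmnn -0.91 to 0.32, Pcna -0.42 to 0.07, Rrm1 -0.03 to 0.14, Top2a -0.37 to 0.87, Ccna2 -0.44 to 0.63, Ccnb1 -0.60 to 1.05, Ccnb2 -0.29 to 0.44, Cdk1 -0.24 to 0.87, Plk1 -0.29 to 0.12, Aurka -0.72 to 0.20, Birc5 -0.54 to 0.37, Bub1 -0.20 to 1.38, Bub1b -0.27 to 0.51, Cenpf -0.00204 to 1.15, Cdc20 -0.39 to 0.54, Kif20a -0.30 to 0.71, Kif23 -1.06 to 1.06, Nusap1 -0.02 to 1.18, Prc1 -0.56 to 0.28, Tpx2 -0.25 to 1.40, Dut -0.04 to 0.09, Slbp -0.05 to 0.04, Smc4 -0.16 to 0.23, Rb1 -0.15 to 0.11, Mettl3 -0.71 to 0.05. Signs also turned, near 0, with limma at either pseudocount for Top2a (-0.02 in both), Birc5 (0.01 and 0.03), Dut (-0.05 in both) and Slbp (-0.10 and -0.11), and for Cdc20 (-0.01) at the larger one. Without the low-count filter they turned for Ccna2 (-0.00695), Ccnb1 (-0.00351), Cdc20 (-0.00282) and Slbp (-0.00941), with DESeq2 for Ccna2 (-6.37e-04) and Slbp (-0.00386), with DESeq2 size factors in edgeR for Slbp (-0.00284), and with the scaling undone for Ccnb1 (-0.03). DESeq2 gave fold changes for all 40 members but no adjusted p for 9 of them. These were Ccnb2, Plk1, Aurka, Aurkb, Cdca8, Cenpa, Gmnn, Ube2c and Ccne1, and their DESeq2 fold changes were not compared here. These are members with low counts, and DESeq2 by default withholds the adjusted p of genes below a mean-count cut. The cause of the turned signs was not tested. Depth and 2 libraries a genotype limit the precision: 95% intervals ran from -0.28 to 0.41 for Rrm1 and from -0.77 to 2.46 for Cenpa.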
